A study of Mus musculus with 16 samples.

Results

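Matrix metalloproteinases (MMPs), the secreted ADAMTS proteases and the tissue inhibitors of metalloproteinases (TIMPs) were followed in inguinal white adipose tissue (iWAT) of mice in which adipocytes were made to express the hyaluronan synthase Has2 or the hyaluronidase PH20, which is encoded by Spam1. The genes were chosen by name and annotation alone, as the protein-coding genes of the deposited expression table whose symbol is Mmp or Adamts followed by a number, with a closing a or b allowed for Mmp, or Timp1 to Timp4. The rule gave 45 of 54532 genes, namely 22 MMP genes, 19 ADAMTS genes and 4 TIMP genes, and it used no measured value. Earlier results of these data were known when the genes were chosen.

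MMPs and ADAMTS proteases are zinc-dependent enzymes that are made as inactive proenzymes and cut proteins of the extracellular matrix. The MMPs cut collagens, denatured collagen, laminin and other matrix proteins, while the ADAMTS family includes enzymes that cut the hyaluronan-binding proteoglycans versican and aggrecan and others that remove the amino-terminal propeptide of fibrillar procollagens. TIMPs bind the active site of these enzymes, and Timp2 together with the membrane-bound Mmp14 also takes part in the activation of pro-Mmp2. In adipose tissue, fibroblast-like adipocyte progenitors, endothelial cells and macrophages are known sources of these enzymes beside the adipocyte, and Mmp14 is known for its role in the collagen remodelling that accompanies fat growth.

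All 16 mice were males, 8 to 10 weeks old at the start, that carried Apn-rtTA, a doxycycline-activated transcription factor under the adiponectin promoter, and all ate chow with 200 mg/kg doxycycline for 5 days. Has2_TG mice also carried TRE-Has2 and PH20_TG mice also carried TRE-PH20, while Has2_WT and PH20_WT were the Apn-rtTA littermates of each line, with 4 mice per group. The adiponectin promoter directs the transgenes to adipocytes, so by design the transgenes are not active in the other cells of the tissue. Nothing in the labels names an animal's litter. Each p-value rests on the spread within groups of the libraries in its fit, 8 for each study alone and 16 for comparisons across studies.

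The libraries held 14421692 to 26751729 reads on genes each. Has2 rose in Has2_TG over Has2_WT, from 0.806, 0.474, 0.417 and 0.643 FPKM (fragments scaled to gene length and library size) in the controls to 2.28, 1.86, 3.24 and 2.97 FPKM (log2 fold change 1.98 with SE 0.30, adjusted p = 0.0540 by limma), values that hold transgene and endogenous reads together. Has2 also reached 3.32 and 3.26 FPKM in PH20_TG1 and PH20_TG4, against 0.380 and 0.0990 FPKM in PH20_TG2 and PH20_TG3. Spam1 had 0, 6, 12 and 5 reads in PH20_TG1 to PH20_TG4 and 0 in the other 12 libraries, and 0 reads allow up to 3. The 6 adipocyte markers summed to between 3569 and 8548 FPKM in every library and none passed the test in either study. B cell markers summed to over 50 FPKM in Has2_WT1, Has2_WT2, PH20_WT1 and PH20_WT3 and to at most 3.37 FPKM in the 8 transgenic libraries, so results that depended on those 4 controls are also given without them. In bulk tissue, fewer cells of a type and less RNA per cell cannot be told apart.

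Timp2 and the gelatinase gene Mmp2 led the families in iWAT on the per-length FPKM scale. Timp2 made up 46.1% to 90.6% of the summed FPKM of the 4 TIMP genes in the 16 libraries, and Mmp2 made up 21.5% to 52.7% of the summed FPKM of the 22 MMP genes. By the mean over all 16 libraries, Mmp14 and the stromelysin gene Mmp3 came next, although in Has2_WT the mean of Mmp19 (12.8 FPKM) was above that of Mmp3 (11.1 FPKM). The leading ADAMTS genes were Adamts5, Adamts2 and Adamts10, which together held 60.1% to 85.5% of the ADAMTS sum. The secreted collagenase genes were near the floor of detection, with at most 0.547 FPKM for Mmp13 and 0.306 FPKM for Mmp8 in any library. Mmp1b, grouped here with the collagenases, and the stromelysin gene Mmp10 had 0 reads in all 16. Mmp1a was not among the members, so its level is not known here. The remaining 43 members had at least 1 read in at least 1 library.

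**Figure D1:**
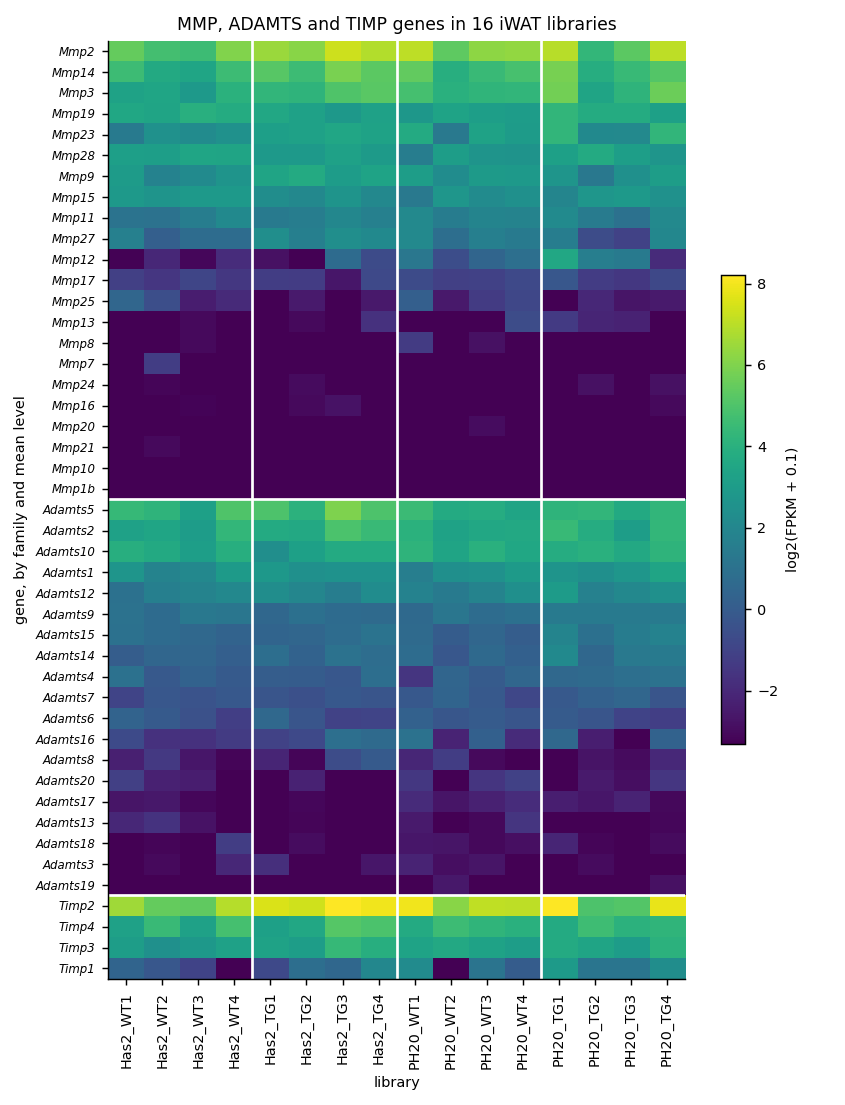
Each row is a member and each column a library, with colour giving log2(FPKM + 0.1), and white lines separate the 3 families and the 4 groups. Timp2, Mmp2 and Mmp14 are bright in every library, while Mmp10 and Mmp1b, at 0 reads throughout, are at the dark end of the scale.

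The promoters of Mmp3, Mmp27, Mmp14 and Timp2 are shown because these 4 members rose with Has2 and lie either inside an MMP gene cluster (Mmp3 and Mmp27) or outside it (Mmp14 and Timp2). Of the MMP genes, 9 lie in a cluster on chromosome 9 of GRCm38, from 7272514 to 7699585 (Mmp13, Mmp12, Mmp1b, Mmp3, Mmp10, Mmp8, Mmp27, Mmp20 and Mmp7). The windows run 5′ to 3′ on the gene's strand, 250 bases before to 50 bases after the start, and were taken from RefSeq (GRCm38.p6), where 31 of the 45 members had 34 promoters. Capitals mark the AP-1 motif TGANTCA, the GC box GGGCGG and the TATA box TATAAA, searched on both strands. The Mmp3 window is chr9:7445572-7445871 (plus strand), the Mmp27 window chr9:7571146-7571445 (plus strand), the Mmp14 window chr14:54431348-54431647 (plus strand) and the Timp2 window chr11:118355362-118355661 (minus strand).
Mmp3: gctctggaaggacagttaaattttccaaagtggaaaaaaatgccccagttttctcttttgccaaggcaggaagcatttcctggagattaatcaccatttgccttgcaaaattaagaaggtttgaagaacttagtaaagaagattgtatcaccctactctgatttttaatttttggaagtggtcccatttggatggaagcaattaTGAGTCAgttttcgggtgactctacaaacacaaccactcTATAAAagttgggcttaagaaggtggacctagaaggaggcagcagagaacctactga
Mmp27: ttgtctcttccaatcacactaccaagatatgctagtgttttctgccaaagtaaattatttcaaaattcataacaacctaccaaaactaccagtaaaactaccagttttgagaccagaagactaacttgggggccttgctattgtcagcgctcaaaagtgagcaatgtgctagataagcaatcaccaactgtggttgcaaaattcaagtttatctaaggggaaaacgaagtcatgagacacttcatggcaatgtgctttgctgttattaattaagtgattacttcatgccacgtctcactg
Mmp14: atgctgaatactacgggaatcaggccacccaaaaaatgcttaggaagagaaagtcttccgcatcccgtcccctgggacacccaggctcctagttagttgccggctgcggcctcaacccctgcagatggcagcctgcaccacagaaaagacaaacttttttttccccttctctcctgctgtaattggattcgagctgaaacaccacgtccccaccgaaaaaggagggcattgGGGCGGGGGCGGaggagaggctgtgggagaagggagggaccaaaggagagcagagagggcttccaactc
Timp2: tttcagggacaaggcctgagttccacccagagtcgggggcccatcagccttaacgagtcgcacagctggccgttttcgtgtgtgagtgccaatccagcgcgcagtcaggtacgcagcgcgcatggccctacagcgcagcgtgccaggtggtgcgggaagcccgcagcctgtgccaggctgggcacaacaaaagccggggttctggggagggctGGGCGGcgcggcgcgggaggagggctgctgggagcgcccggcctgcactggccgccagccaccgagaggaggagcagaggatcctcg
The Mmp3 window holds 1 AP-1 motif and 1 TATA box, the Mmp27 window none of these motifs, the Mmp14 window 2 GC boxes and the Timp2 window 1 GC box.

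The clustered MMP genes and the other members differed in how many of their promoters held these letters. AP-1 motifs stood in promoters of 7 of the 9 clustered members and of 0 of the 22 other members with a promoter. TATA boxes stood in 8 of the 9 and in 2 of the 22, and GC boxes in 0 of the 9 and 18 of the 22. Among all 32851 mouse promoters of the same length, 7.81% held the AP-1 motif, 13.6% the TATA box and 35.7% the GC box. The ETS motif AGGAAG, also searched on both strands, was in 44.1% of the members' promoters and in 35.4% of all promoters. A match describes letters in this window and is not a measured binding site. Mmp3 and Mmp27 were shown because they lie in the cluster and rose with Has2, as given below for each library. Any part of the motifs in the levels of these genes was not tested.

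The first comparison asked how the protease and inhibitor genes stood in iWAT when adipocytes made more Has2. Of the 25 members with a mean of at least 50 reads, 9 rose and 1 fell at an unadjusted p under 0.05 in limma's test, where 10% of the 12606 genes tested were called (6.25% higher and 3.75% lower). One of the 9, Adamts16, met the minimum through Has2_TG alone. By family, 6 of 10 tested MMP genes were higher and 1 was lower, 1 of 12 ADAMTS genes was higher, and 2 of 3 TIMP genes were higher. The median log2 fold change was 0.39 over the 25 members, 1.07 over the MMP genes and 0.17 over the ADAMTS genes, beside -0.03 over all genes. None of the 25 passed after Benjamini-Hochberg adjustment over all genes (limma), which 0.103% of all genes did. The 2 groups did not overlap in 6 members, all higher in Has2_TG, and in 6.19% of all genes (4.08% higher and 2.11% lower). Values are listed below in the order of libraries 1 to 4 of each group.

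Both gelatinase genes, whose enzymes cut denatured collagen and type IV collagen, rose. Mmp2 (chr8:92827291-92853420) stood at 44.9, 27.4, 24.1 and 63.9 FPKM in Has2_WT and at 88.7, 70.9, 159 and 116 FPKM in Has2_TG. All transgenic libraries were above all controls, and Has2_WT4 was the control closest to them. Its log2 fold change came to 1.48 with SE 0.34 and, by limma, adjusted p = 0.111. Mmp9 (chr2:164940780-164955850), which myeloid cells also make, stood at 7.87, 3.39, 4.46 and 6.23 FPKM in the controls and 10.6, 13.0, 8.23 and 10.2 FPKM in Has2_TG. The groups did not overlap, though Has2_WT1 and Has2_TG3 were separated by only a small gap. By limma, Mmp9 had a log2 fold change of 0.98 (SE 0.27), with adjusted p = 0.195.

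Mmp3 (chr9:7445822-7455975), a stromelysin that cuts proteoglycans, laminin and fibronectin and activates other pro-MMPs, rose as well. Its levels were 9.76, 10.8, 7.13 and 16.6 FPKM in Has2_WT and 19.3, 18.2, 32.5 and 38.4 FPKM in Has2_TG. Has2_TG3 and Has2_TG4 were the highest libraries, and the groups did not overlap. This was a log2 fold change of 1.27 with an SE of 0.31 (limma adjusted p = 0.136). Mmp11, a stromelysin by name that cuts few matrix proteins, stood at 1.99, 1.96, 2.82 and 4.32 FPKM in Has2_WT and 2.48, 2.82, 3.90 and 3.12 FPKM in Has2_TG, and the ranges overlapped (log2 fold change 0.20 with SE 0.29, adjusted p = 0.874 by limma).

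Among the membrane-bound MMPs, Mmp14 rose and Mmp15 fell. Mmp14 (chr14:54431612-54445364), the membrane collagenase that also activates pro-Mmp2, stood at 23.8, 12.8, 10.9 and 23.5 FPKM in Has2_WT and 36.6, 24.0, 59.1 and 39.5 FPKM in Has2_TG. Has2_TG2 lay just above the highest control, Has2_WT1. Its log2 fold change came to 1.18 with SE 0.33 and, by limma, adjusted p = 0.213. Mmp15 (chr8:95352268-95375080), a related membrane-type protease, was the member that fell, from 7.34, 6.11, 7.44 and 7.48 FPKM to 4.87, 4.07, 6.17 and 4.06 FPKM. Has2_TG3 reached just above the lowest control, Has2_WT2, so the ranges overlapped. By limma, Mmp15 had a log2 fold change of -0.57 (SE 0.19), with adjusted p = 0.306.

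Mmp23 and Mmp27, MMPs with few known substrates, completed the MMP genes that rose. Mmp23 (chr4:155650655-155653384), which is anchored in the membrane by its amino terminus, stood at 2.57, 5.51, 4.63 and 5.59 FPKM in Has2_WT and 8.98, 9.70, 11.1 and 10.0 FPKM in Has2_TG. The Has2_TG libraries were close together and all above the controls. This was a log2 fold change of 1.16 with an SE of 0.25 (limma adjusted p = 0.0912). Mmp27 (chr9:7571396-7581885) stood at 3.19, 1.04, 1.60 and 1.56 FPKM in Has2_WT and 5.03, 3.03, 5.03 and 4.35 FPKM in Has2_TG. Has2_WT1 reached into the range of Has2_TG, just above Has2_TG2. Its log2 fold change came to 1.28 with SE 0.33 and, by limma, adjusted p = 0.169. Mmp19 (log2 fold change -0.42 with SE 0.20, adjusted p = 0.544 by limma), which cuts basement membrane proteins, and Mmp28 (log2 fold change -0.28 with SE 0.16, adjusted p = 0.623 by limma), an MMP of epithelia and macrophages, did not pass the test. Mmp19 passed it, with lower levels in Has2_TG, without Has2_WT2 (log2 fold change -0.51) or Has2_TG1 (-0.54) and without both B cell-rich controls (-0.62).

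Timp2 had the smallest p of all members, and Timp3 also rose. Timp2 (chr11:118301069-118355740) stood at 93.5, 44.6, 41.6 and 119 FPKM in Has2_WT and 189, 166, 295 and 249 FPKM in Has2_TG. Has2_TG2, the lowest transgenic library, was above Has2_WT4, the highest control. By limma, Timp2 had a log2 fold change of 1.70 (SE 0.35), with adjusted p = 0.0870. Timp3 (chr10:86300372-86349506), the inhibitor that stays bound to the matrix and also blocks ADAMTS proteases, stood at 8.38, 5.49, 6.93 and 9.61 FPKM in Has2_WT and 9.95, 8.39, 20.7 and 15.1 FPKM in Has2_TG. Has2_TG1, Has2_TG3 and Has2_TG4 lay above all controls, Has2_TG1 by a small gap, while Has2_TG2 was within the control range. This was a log2 fold change of 0.77 with an SE of 0.29 (limma adjusted p = 0.418). Of its exonic length, 21.3% is shared with Syn3. The call was lost without Has2_WT2 (log2 fold change 0.62), Has2_WT3 (0.73), Has2_TG3 (0.53) or Has2_TG4 (0.68), and without both B cell-rich controls (0.63). Timp4, the TIMP known for its expression in heart and fat, ranged from 9.48 to 27.6 FPKM in Has2_WT and from 9.15 to 35.4 FPKM in Has2_TG (log2 fold change 0.27 with SE 0.51, adjusted p = 0.908 by limma).

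Adamts16 was the 1 of 12 tested ADAMTS genes past the test, at a low level. It stood at 0.510, 0.210, 0.215 and 0.306 FPKM in Has2_WT and 0.383, 0.476, 1.74 and 1.47 FPKM in Has2_TG, and it met the minimum of 50 reads through Has2_TG alone, so its call is given as a description. Has2_TG3 and Has2_TG4 were high, and Has2_TG1 and Has2_TG2 lay within the control range. Its log2 fold change came to 1.26 with SE 0.53 and, by limma, adjusted p = 0.470. The call was lost without Has2_WT2 (log2 fold change 1.15), Has2_WT3 (1.16), Has2_WT4 (1.28), Has2_TG3 (0.94) or Has2_TG4 (1.02), and without both B cell-rich controls (1.40). Without Has2_WT4, and without both B cell-rich controls, the change was no smaller than with all libraries, in fits that held fewer libraries. The proteoglycan-cutting Adamts5 stood at 20.8, 17.8, 9.19 and 32.8 FPKM in Has2_WT and 31.3, 16.9, 62.6 and 31.3 FPKM in Has2_TG, where Has2_TG3 was far above the rest (log2 fold change 0.80 with SE 0.44, adjusted p = 0.608 by limma). It passed the test at an unadjusted p under 0.05 without Has2_WT4 (log2 fold change 1.08) or Has2_TG2 (1.11). Adamts2, a procollagen N-proteinase, ranged from 8.09 to 19.7 FPKM in Has2_WT and from 12.2 to 30.6 FPKM in Has2_TG (log2 fold change 0.68 with SE 0.35, adjusted p = 0.578 by limma), and it passed without Has2_WT4 (log2 fold change 0.94) or Has2_TG2 (0.87). Adamts1, Adamts4, Adamts9, Adamts12 and Adamts15, with log2 fold changes between -0.34 and 0.39, did not pass the test.

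**Figure D2:**
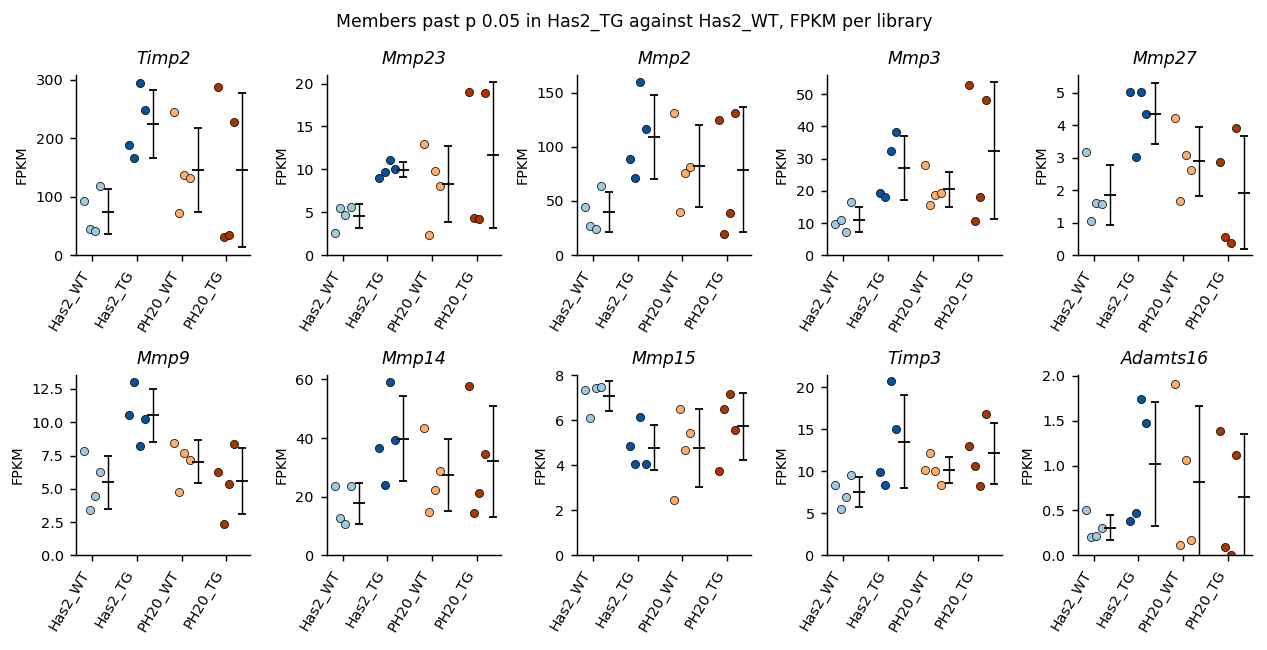
Points are FPKM per library of the 10 members past an unadjusted p of 0.05 in Has2_TG against Has2_WT, by group, with the mean and SD (n = 4, bars below 0 not drawn). In Timp2, Mmp23, Mmp2, Mmp3, Mmp9 and Mmp14 all dark blue points (Has2_TG) lie above all light blue points (Has2_WT), while both PH20 groups overlap the range of Has2_TG.

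The same members were then read in the other mouse line. For all 10 the range of Has2_TG overlapped the range of PH20_WT and the range of PH20_TG. The same count was not made over all genes. Between transgenic and control groups, and between the controls, only 4.54% to 6.34% of all genes did not overlap. Overlap by itself therefore says little about these 10 members. Single Has2_TG libraries still stood higher for some, as Has2_TG1, Has2_TG2 and Has2_TG4 were above every PH20 library for Mmp9, and Has2_TG1, Has2_TG3 and Has2_TG4 for Mmp27. Timp2, for example, stood at 245, 71.5, 137 and 133 FPKM in PH20_WT and 287, 31.7, 34.8 and 228 FPKM in PH20_TG, and Mmp2 at 131, 40.2, 75.9 and 81.4 FPKM and 125, 19.6, 39.2 and 131 FPKM. PH20_TG1 and PH20_TG4 held both genes at several times the level of PH20_TG2 and PH20_TG3. Mmp3 was likewise higher in PH20_TG1 and PH20_TG4, with 52.9, 10.7, 18.1 and 48.4 FPKM.

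Relative to the MMP genes, the TIMP genes made up more of the summed FPKM in Has2_TG than in Has2_WT. Summed MMP expression was 89.3 to 154 FPKM in Has2_WT and 163 to 304 FPKM in Has2_TG, and summed TIMP expression 58.4 to 156 FPKM and 188 to 352 FPKM. The ratio of the MMP sum to the TIMP sum was 1.10, 1.22, 1.54 and 0.985 in the Has2_WT libraries and 0.944, 0.868, 0.861 and 0.818 in the Has2_TG libraries. Every Has2_TG library had a lower ratio than every Has2_WT library. In PH20_WT the ratio was 0.914, 1.01, 0.971 and 1.10 and in PH20_TG 0.975, 1.33, 1.99 and 1.01, with the highest value of all in PH20_TG3. These ratios of summed FPKM describe RNA and were not tested.

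Markers of adipocyte progenitors moved together with these members. All 6 of 6 progenitor markers (Pdgfra, Dpp4, Pi16, Ly6a, Cd34 and Dcn) were higher in Has2_TG at the same unadjusted threshold, with a median log2 fold change of 1.60. Their summed FPKM was 212, 168, 160 and 344 in Has2_WT, 515, 533, 738 and 711 in Has2_TG, 748, 223, 453 and 488 in PH20_WT and 716, 142, 181 and 758 in PH20_TG. Across the 16 libraries, which share the same scaling, Pearson's r of the log2 levels with that sum was 0.98 for Mmp2, 0.97 for Timp2, 0.89 for Mmp14, 0.87 for Mmp3, 0.86 for Mmp23, 0.82 for Mmp27 and 0.78 for Mmp9. It was also 0.75 for Adamts2 and 0.72 for Mmp11, which were not called, and -0.70 for Mmp15. With the sum of the macrophage markers, r was 0.78 for Timp2, 0.75 for Mmp2, 0.72 for Mmp14 and -0.69 for Mmp15. Of the macrophage markers, 3 of 6 (Adgre1, Csf1r and Mrc1) were higher, with sums of 180 to 371 FPKM in Has2_WT and 406 to 473 FPKM in Has2_TG. Of the neutrophil markers only 1 of 6 was expressed highly enough to be tested, it did not pass, and Ly6g was at 0 in every library. B cell and T cell markers were lower in 2 of 6 cases each, with B cell sums of 2.07 to 262 FPKM in Has2_WT and 1.60 to 3.22 FPKM in Has2_TG. Of the endothelial markers 1 of 5 was higher, of the smooth muscle markers 1 of 3 was lower, and 0 of 6 skeletal muscle markers passed. The skeletal muscle sums were nevertheless uneven within Has2_TG, at 319 and 677 FPKM in Has2_TG1 and Has2_TG2 and 36.7 and 37.2 FPKM in Has2_TG3 and Has2_TG4, against 43.9 to 113 FPKM in Has2_WT. With the skeletal muscle score as covariate, Adamts2 (log2 fold change 0.71) and Mmp19 (-0.43) also passed. The part of these cells in the result was not tested.

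**Figure D3:**
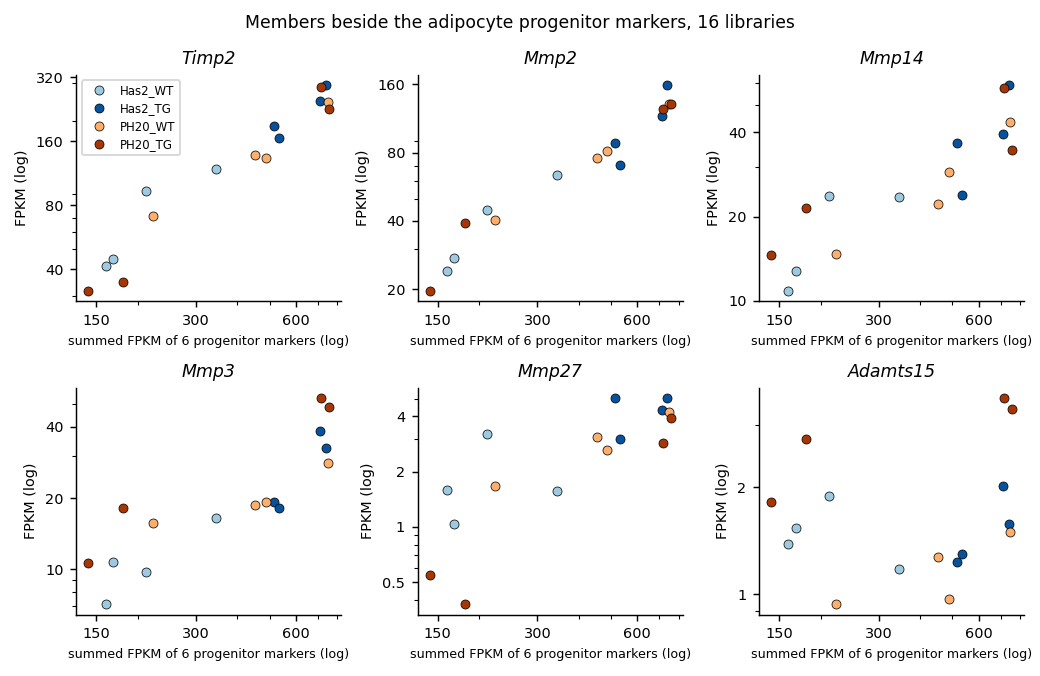
Each panel plots the FPKM of 1 member (vertical, log axis) against the summed FPKM of 6 adipocyte progenitor markers (horizontal, log axis) in the 16 libraries, coloured by group. Timp2 and Mmp2 follow the sum across all 4 groups (r = 0.97 and 0.98), while the 3 highest values of Adamts15 are those of PH20_TG1, PH20_TG3 and PH20_TG4, at marker sums of 716, 181 and 758 FPKM.

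The second comparison asked the same of iWAT of mice that carried TRE-PH20, for the hyaluronidase PH20. The library labelled PH20_TG1 had 0 Spam1 reads and was kept by its label alone. Of 27 members tested, 4 rose and 0 fell at an unadjusted p under 0.05, where 6.59% of the 12532 genes tested were called (3.2% higher and 3.39% lower). They were 3 ADAMTS genes (Adamts15, Adamts9 and Adamts14) and Mmp19, and none of the members called in the first comparison was among them. The median log2 fold change was 0.26 over the 27 members, 0.35 over the ADAMTS genes and 0.23 over the MMP genes, beside 0.01 over all genes. None of the members passed after adjustment over all genes by limma, which 0% of all genes did. The groups did not overlap in 3 members (Adamts15, Adamts9 and Adamts4), all higher in PH20_TG, and in 4.54% of all genes (2.21% higher and 2.33% lower). Without PH20_TG1 the calls of Adamts15 (log2 fold change 1.08), Adamts9 (0.51) and Mmp19 (0.49) remained, that of Adamts14 was lost (0.74), and Adamts6 passed with lower levels (-0.76).

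Adamts15 and Adamts9, proteases that cut versican and aggrecan, were the called members whose groups did not overlap. Adamts15 (chr9:30899155-30922452) stood at 1.5, 0.938, 1.28 and 0.969 FPKM in PH20_WT and 3.56, 1.82, 2.73 and 3.31 FPKM in PH20_TG. PH20_TG1 and PH20_TG4 were highest and PH20_TG2 was the closest to the controls. By limma, Adamts15 had a log2 fold change of 1.20 (SE 0.26), with adjusted p = 0.664. Adamts9 (chr6:92772699-92943492) stood at 1.42, 2.20, 1.61 and 1.80 FPKM in PH20_WT and 2.54, 2.50, 2.54 and 2.52 FPKM in PH20_TG, all 4 of the latter nearly equal. This was a log2 fold change of 0.51 with an SE of 0.17 (limma adjusted p = 0.697). Its exons share 12.0% of their length with A730049H05Rik and Gm15737. Without the B cell-rich PH20_WT1 and PH20_WT3 the log2 fold change was 0.33 and the call was lost.

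Adamts4, an aggrecan-cutting protease, stood at 0.245, 1.24, 0.885 and 1.29 FPKM in PH20_WT and 1.40, 1.46, 1.77 and 1.91 FPKM in PH20_TG. The groups did not overlap, but PH20_WT1 was far below the other controls and the test was not passed (log2 fold change 0.95 with SE 0.43, adjusted p = 0.731 by limma). It was passed without PH20_WT2 (log2 fold change 1.14) or PH20_WT4 (1.16), with the replicate block (0.95), in 1 fit of 16 libraries (0.95), with voom weights (1.21) and with a pseudocount of 1 (0.49). Adamts5 differed little, at 22.95, 13.0, 13.9 and 10.6 FPKM and 17.9, 19.4, 12.6 and 19.3 FPKM (log2 fold change 0.23 with SE 0.25, adjusted p = 0.848 by limma), though it passed without PH20_WT1 (log2 fold change 0.45) and without both B cell-rich controls (0.54). Adamts1, another versican-cutting member, ranged from 2.96 to 7.72 FPKM in PH20_WT and from 5.24 to 10.7 FPKM in PH20_TG (log2 fold change 0.43 with SE 0.31, adjusted p = 0.783 by limma).

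Adamts14, a procollagen N-proteinase (chr10:61197112-61273438), stood at 1.60, 0.783, 1.45 and 1.05 FPKM in PH20_WT and 4.27, 1.33, 2.45 and 2.57 FPKM in PH20_TG. PH20_TG1 was highest, and PH20_TG2 lay within the control range. Its log2 fold change came to 1.00 with SE 0.36 and, by limma, adjusted p = 0.702. The call was lost without PH20_WT2 (log2 fold change 0.82) or PH20_TG1 (0.74). Adamts2, the main procollagen N-proteinase in this tissue by FPKM, stood at 16.4, 9.99, 11.8 and 12.3 FPKM and 21.7, 13.8, 8.33 and 19.5 FPKM (log2 fold change 0.26 with SE 0.30, adjusted p = 0.858 by limma), and it passed without PH20_TG3 (log2 fold change 0.53). Adamts12, which cuts cartilage oligomeric matrix protein, ranged from 2.50 to 5.23 FPKM in PH20_WT and from 3.24 to 7.85 FPKM in PH20_TG (log2 fold change 0.47 with SE 0.31, adjusted p = 0.759 by limma).

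Mmp19 was the MMP gene that rose with PH20. Mmp19 (chr10:128790910-128800824) stood at 6.74, 10.3, 8.83 and 8.31 FPKM in PH20_WT and 19.1, 13.4, 13.6 and 9.34 FPKM in PH20_TG. PH20_TG1 was highest, and PH20_TG4 lay within the control range. By limma, Mmp19 had a log2 fold change of 0.66 (SE 0.22), with adjusted p = 0.697. Of its exonic length, 28.3% is shared with Tmem198b and Gm47093. Without the B cell-rich PH20_WT1 and PH20_WT3 the log2 fold change was 0.53 and the call was lost.

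Mmp28 stood at 2.87, 8.33, 6.06 and 5.90 FPKM in PH20_WT and 9.31, 12.9, 8.68 and 6.40 FPKM in PH20_TG, with PH20_WT1 lowest (log2 fold change 0.73 with SE 0.33, adjusted p = 0.731 by limma). It passed without PH20_WT2 (log2 fold change 0.93) or PH20_TG4 (0.89), with the replicate block (0.73), in 1 fit of 16 libraries (0.73) and with voom weights (0.82). Mmp12, the macrophage elastase, stood at 2.28, 0.571, 1.25 and 1.74 FPKM in PH20_WT and 12.0, 2.96, 2.48 and 0.165 FPKM in PH20_TG. PH20_TG1 was by far the highest and PH20_TG4 the lowest of the 8 libraries (log2 fold change 0.67 with SE 1.01, adjusted p = 0.890 by limma). The macrophage markers summed to 1509, 160, 235 and 469 FPKM in PH20_TG and to 346 to 672 FPKM in PH20_WT, and their part in the level of Mmp12 was not tested. Without PH20_TG4 Mmp12 passed the test (log2 fold change 1.70), and with a skeletal muscle score as covariate its direction turned (log2 fold change -2.31, limma adjusted p = 1.00) and it passed the unadjusted threshold.

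The members that rose with Has2 did not pass the test in the PH20 study with all libraries. Log2 fold changes were -0.54 for Timp2, -0.34 for Mmp2, -1.04 for Mmp27, -0.43 for Mmp9, 0.15 for Mmp14, 0.36 for Mmp23, 0.41 for Mmp3, 0.22 for Timp3 and -0.49 for Adamts16. Their SEs ran from 0.22 for Timp3 to 1.06 for Adamts16. Without PH20_TG4, Mmp27 passed with lower levels in PH20_TG (log2 fold change -1.55). None of the 6 progenitor markers passed the test in this study, while 5 of 6 skeletal muscle markers fell, with sums of 186 to 771 FPKM in PH20_WT and 30.5 to 240 FPKM in PH20_TG. B cell markers fell in 3 of 6 cases and T cell markers in 4 of 6, with B cell sums of 2.89 to 282 FPKM in PH20_WT and 1.99 to 3.37 FPKM in PH20_TG. With the skeletal muscle score as covariate, the calls of Mmp19 (log2 fold change 0.36), Adamts9 (0.63) and Adamts14 (1.04) were lost, the call of Adamts15 remained, and Adamts1 (1.13), Adamts4 (1.56) and Adamts6 (-1.30) passed.

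**Figure D4:**
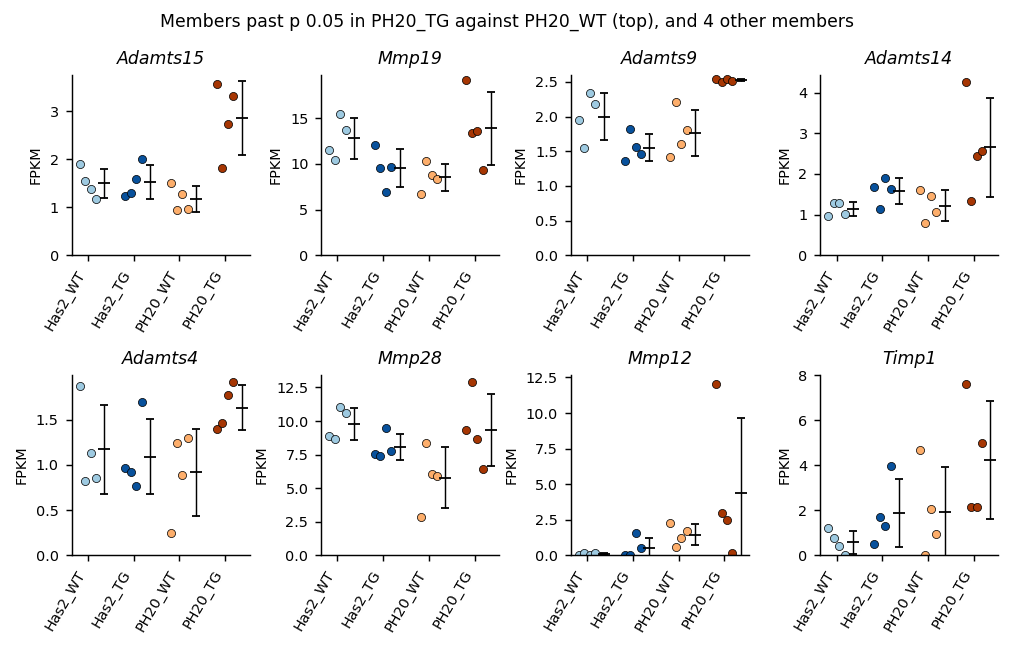
Points are FPKM per library by group with the mean and SD (n = 4, bars below 0 not drawn) for the 4 members past an unadjusted p of 0.05 in PH20_TG against PH20_WT (top row) and for Adamts4, Mmp28, Mmp12 and Timp1 (bottom row). The dark orange points (PH20_TG) of Adamts15, Adamts9 and Adamts4 lie above all light orange points (PH20_WT), and the Mmp12 panel shows PH20_TG1 at 12.0 FPKM alone at the top.

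The changes in the 2 studies were then compared with each other in 1 limma fit of all 16 libraries. Of 26 members tested, 9 differed at an unadjusted p under 0.05 (4 with the higher change in the Has2 study and 5 with the lower), where 7.7% of 12593 genes did (4.03% and 3.68%), and none after adjustment. Timp2, Mmp27, Mmp2 and Mmp9 moved more toward higher levels with Has2 than with PH20. Their differences of log2 fold change were 2.23 (SE 0.91, limma adjusted p = 0.613), 2.32 (SE 0.81, limma adjusted p = 0.598), 1.82 (SE 0.77, limma adjusted p = 0.613) and 1.41 (SE 0.48, limma adjusted p = 0.598). Mmp19, Adamts15, Mmp28, Mmp15 and Adamts9 moved the other way, with differences of -1.09 (SE 0.31, limma adjusted p = 0.567), -1.18 (SE 0.35, limma adjusted p = 0.567), -1.0 (SE 0.37, limma adjusted p = 0.606), -0.88 (SE 0.38, limma adjusted p = 0.613) and -0.85 (SE 0.26, limma adjusted p = 0.571). Mmp14, Mmp3 and Mmp23, which rose with Has2, did not pass this test of the difference.

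**Figure D5:**
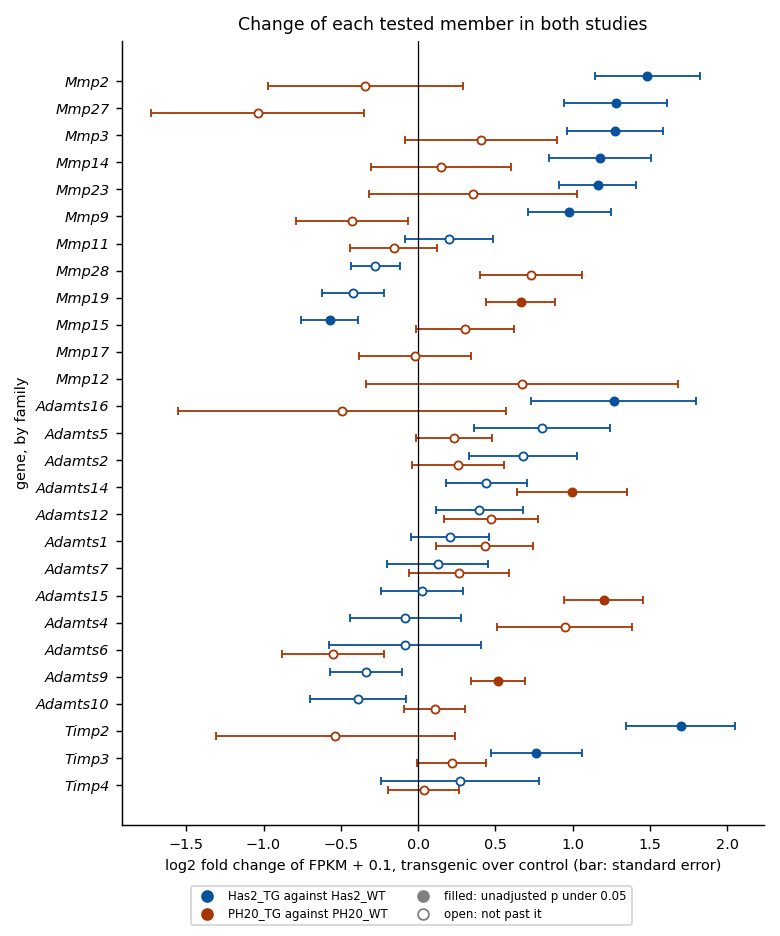
For each tested member, points give the log2 fold change of FPKM + 0.1 (horizontal axis) in Has2_TG against Has2_WT (blue) and PH20_TG against PH20_WT (brown), with the standard error as bar and filled points past an unadjusted p of 0.05. Mmp2, Mmp27 and Timp2 have blue points above 1 and brown points below 0, while Mmp19, Adamts9 and Adamts15 have filled brown points and open blue ones.

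Some of these calls depended on which libraries were kept, while the differences kept their sign. Without 1 library the call for Timp2 was lost for Has2_WT2, Has2_WT3, Has2_TG3, PH20_WT1, PH20_TG2 and PH20_TG3, leaving differences between 1.72 and 2.09. The call for Mmp2 was lost without Has2_WT2, Has2_WT3, Has2_TG3, Has2_TG4, PH20_WT1, PH20_TG2 or PH20_TG3 (differences between 1.29 and 1.77). Mmp15 lost its call without Has2_WT3, Has2_WT4, Has2_TG2, Has2_TG4, PH20_WT1, PH20_TG2 or PH20_TG3 (differences between -0.60 and -0.85). Mmp14 gained a call without PH20_WT2 (1.29) or PH20_TG1 (1.37), Adamts4 without Has2_TG4 (-1.25) and Adamts14 without PH20_TG2 (-0.83).

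The 2 groups of controls, which share Apn-rtTA and the diet and differ in line and litters, were compared in the same fit. Of 26 members, 1 was higher and 3 were lower in PH20_WT than in Has2_WT, where 10.3% of 12593 genes were called (4.66% higher and 5.61% lower), and none passed after adjustment. The higher member was Mmp12, which met the minimum through the PH20 libraries, with a mean of 11.25 reads in Has2_WT and 204.5 in PH20_WT, and its difference is given as a description. Mmp12 stood at 0.00507, 0.143, 0.0163 and 0.174 FPKM in Has2_WT and 2.28, 0.571, 1.25 and 1.74 FPKM in PH20_WT, with no overlap and with 2 Has2_WT values below the pseudocount of 0.1 (log2 difference 3.06, SE 1.01, limma adjusted p = 0.368). Mmp28 was lower in every PH20_WT library than in every Has2_WT library (log2 difference -0.83, SE 0.27, limma adjusted p = 0.362), and so was Mmp19 (-0.57, SE 0.22, adjusted p = 0.421), whereas Mmp15 overlapped (-0.64, SE 0.27, adjusted p = 0.441). The control groups did not overlap in 6.34% of all genes (3.2% higher and 3.14% lower in PH20_WT). Without the 4 B cell-rich libraries none of these 4 members passed, although log2 differences kept their sign at 2.64, -0.62, -0.64 and -0.32 for Mmp12, Mmp28, Mmp19 and Mmp15. That fit held fewer libraries, and the difference of Mmp19 was no smaller in it than with all libraries. Without PH20_WT1 alone, the differences of Mmp28 and Mmp15 shrank to -0.54 and -0.36, and Mmp15 lost its call. Mmp19 lost its call without PH20_WT1 (-0.47) or Has2_WT3 (-0.48), and Mmp15 also without Has2_WT1 (-0.62), Has2_WT3 (-0.62) or Has2_WT4 (-0.61). Calls were gained by Mmp2 without Has2_WT4 (1.29), PH20_WT2 (1.33) or PH20_TG2 (1.02), by Mmp3 without Has2_WT4 (1.13) or without PH20_TG1, PH20_TG2 or PH20_TG4 (0.91 each), by Mmp23 without PH20_WT2 (1.18) and by Mmp11 without Has2_WT4 (0.62). Leaving out a PH20_TG library left the differences between the controls as they were. There, the change lay in the error estimated from all groups of the fit. The comparison of controls shares its libraries with the comparisons within each study. Side by side, the log2 differences of Mmp19 were -0.57 between the controls, -0.42 with Has2 and 0.66 with PH20. The members that rose with Has2 also stood higher in PH20_WT than in Has2_WT, though ranges overlapped and none passed with all libraries. Log2 differences between the controls and with Has2 were 0.99 and 1.70 for Timp2, 1.02 and 1.48 for Mmp2, and 0.91 and 1.27 for Mmp3. They were 0.60 and 1.18 for Mmp14, 0.67 and 1.16 for Mmp23, and 0.66 and 1.28 for Mmp27. For Mmp9, Timp3 and Adamts16 they were 0.39 and 0.98, 0.44 and 0.77, and 0.63 and 1.26.

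Some members kept close company with one another across the 16 libraries, while others had no close partner. Each partner named here is the one with the highest r among the tested members. Pearson's r of log2(FPKM + 0.1) is given here as a description, since the libraries share tissue, groups and scaling. Mmp2 and Timp2 were most like each other (r = 0.97, Spearman's rho = 0.95, and r = 0.96 after each group's mean was subtracted). Mmp14 and Mmp3 were most like Mmp2 (r = 0.93 and 0.88), Mmp27 and Adamts16 most like Timp2 (r = 0.89 and 0.87), and Mmp23 most like Mmp3 (r = 0.82). Adamts14 and Adamts15 were most like each other (r = 0.83), as were Mmp15 and Mmp28 (r = 0.75). Without the 2 libraries farthest from the median of the member named first, r was 0.95 for Mmp2 and Timp2, 0.66 for Adamts14 and Adamts15 and 0.63 for Mmp15 and Mmp28. With Mmp28 named first, the last of these was 0.48. For Adamts6, Adamts10 and Adamts7 the highest r with any other tested member was 0.32, 0.44 and 0.46.

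The median over members of the SD of log2(FPKM + 0.1) between the 4 libraries was 0.38 in Has2_TG, 0.51 in Has2_WT, 0.43 in PH20_WT and 0.56 in PH20_TG.

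Genes that act around these enzymes were read from lists of other metzincins, ADAMTS-like proteins, regulators and matrix substrates. With Has2, where 6.25% of all genes were called higher, 10 of 23 tested regulators rose and 0 fell, led by Reck, a membrane-anchored MMP inhibitor (log2 fold change 1.48), Pcolce2, an enhancer of procollagen processing (2.09), and Plat, a plasminogen activator (1.78). Of the substrates, 14 of 23 rose and 0 fell, led by fibronectin (Fn1, 2.19), decorin (Dcn, 1.58, also a progenitor marker) and fibrillin (Fbn1, 1.93). Of the other metzincins, 2 of 10 rose, the procollagen C-proteinase Bmp1 (1.29) and Adam33 (0.83), while Adam15 did not pass (0.38). Of the ADAMTS-like genes, which lack a protease domain, 3 of 6 rose, Adamtsl5, Adamtsl1 and Adamtsl4, named after their values were seen. None of these genes passed after adjustment (limma), and the median log2 fold change was 0.41 for regulators, 0.70 for substrates, 0.20 for other metzincins and 0.57 for ADAMTS-like genes, beside -0.03 over all genes.

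The same lists were read in the PH20 study, where 3.2% of all genes were called higher and none passed adjustment (limma). Of 24 regulators, 3 rose, among them Tfpi2, a serine protease inhibitor (log2 fold change 1.02), and the uptake receptor Lrp1 (0.35). Of 23 substrates, 4 rose, among them the basement membrane genes Col4a2 (0.52), Hspg2 (0.43) and Col4a1 (0.53). Of 10 other metzincins, Adam9 (0.38) and Adam12 (0.65) rose and Adam15 (0.26) did not pass, and 0 of 6 ADAMTS-like genes passed. The median log2 fold changes were 0.14 for regulators, 0.35 for substrates, 0.26 for metzincins and 0.24 for ADAMTS-like genes, beside 0.01 over all genes.

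The members below the minimum of 50 reads were 20 in the Has2 study and 18 in the PH20 study. The highest of them in any library were 3.99 FPKM and 7.62 FPKM, both of Timp1, and in each study 4 members had 0 reads in all 8 libraries. Timp1, the TIMP that inflammation induces, stood at 1.20, 0.775, 0.398 and 0 FPKM in Has2_WT, 0.491, 1.70, 1.32 and 3.99 FPKM in Has2_TG, 4.67, 0, 2.06 and 0.930 FPKM in PH20_WT and 7.62, 2.15, 2.16 and 4.98 FPKM in PH20_TG. Its groups overlapped in both studies, and Has2_WT4 and PH20_WT2 had 0 reads. With no minimum of reads, the leukocyte-expressed Mmp25 had lower values in Has2_TG (log2 fold change -1.80) and in PH20_TG (-1.5), as did Adamts13, the protease of von Willebrand factor, in Has2_TG (-0.84), each past the unadjusted threshold and not past adjustment (limma). Mmp25 stood at 1.28, 0.573, 0.0889 and 0.158 FPKM in Has2_WT and 1.02, 0.0719, 0.306 and 0.455 FPKM in PH20_WT, highest in Has2_WT1 and PH20_WT1, which were also among the B cell-rich libraries. Without the B cell-rich controls the log2 fold changes of Mmp25 were -0.74 with Has2 and -0.94 with PH20 and that of Adamts13 was -0.24, and none of these passed. Adamts20, a versican-cutting relative of Adamts9, did not exceed 0.367 FPKM in any library.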

How the data were processed

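RNA from iWAT of 16 mice (4 per group) was sequenced. Per the methods of the study and the submitters' processing notes, the authors checked reads with FastQC 0.11.9 and MultiQC 1.12, aligned them to GRCm38 with STAR 2.7.9a, counted them per gene with STAR and tested them with DESeq2. They deposited FPKM (fragments scaled to gene length and library size) with each gene's length. These deposited FPKM are already scaled, because the total they were divided by is 0.886 to 1.14 times the reads summed over genes. The methods name GENCODE release 23, whereas 98.3% of the identifiers found in GENCODE mouse release 21 have the same start and end there. Strand-specific counting is not given in the sources used here, so reads of overlapping genes cannot be told apart.

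FPKM times gene length and library total gave whole reads (within 0.01) in 100% of values, which served as the minimum of 50 mean reads. Groups were taken from the sample labels, and no pair of libraries was a duplicate (smallest chi-square per degree of freedom 28.7 over 120 pairs). Each study was fitted on its own 8 libraries by the moderated two-sided test of limma 3.58.1 (R 4.3.3) with a variance trend on log2(FPKM + 0.1), a scale that understates the change of low genes, across all genes, with Benjamini-Hochberg adjustment over all of them. A fit of all 16 libraries gave the difference between the studies and that between the controls. Called means an unadjusted p under 0.05, the threshold of the study's methods. The procedure was tested on simulated data. Counting error limits low values: 0 reads allow up to 3.

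The members and lists were chosen with earlier results of these data known. Named were all called members, members chosen by role, and the 3 genes with the smallest p of each list and study. Alternatives were a pseudocount of 1, other minima, 2 other scalings, voom weights, no variance trend, the replicate number as a block, 1 fit of all libraries, a skeletal muscle or B cell score as covariate and each library left out in turn. Fits without the B cell-rich controls were added after the data were seen. Promoters were matched by symbol to RefSeq. The study's measurements other than this RNA sequencing were not analysed here.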

Additional observations from a re-analysis of the deposited data

Results flagged for a closer look

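In 1 of 104 groups of 4 libraries checked, 1 library stood apart from the other 3: Has2_WT2 had 6.11 FPKM of Mmp15, while the other Has2_WT libraries lay between 7.34 and 7.48 FPKM. Chance alone sets a library apart in about 1 of 20 such groups.

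For 9 of the 26 members tested, the log2 fold change with Has2 differed from that with PH20 by limma's test of the difference (unadjusted p under 0.05, none past adjustment), where 7.7% of 12593 genes did. The difference, Has2 minus PH20, was 2.32 for Mmp27, 2.23 for Timp2, 1.82 for Mmp2 and 1.41 for Mmp9. It was -1.18 for Adamts15, -1.09 for Mmp19, -1.0 for Mmp28, -0.88 for Mmp15 and -0.85 for Adamts9.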

How the results depend on the processing

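Counts of called members changed as follows, and the share of all genes called in each setting is not given beside them. With all libraries that share was 10% in the Has2 study, 6.59% in the PH20 study, 7.7% for the difference and 10.3% between controls. A change in a count can therefore be one that all genes share. Leaving out 1 library gave 8 to 12 in the Has2 study (10 with all), 4 to 7 in the PH20 study (4 with all, 7 without PH20_TG4, where Mmp12, Mmp27 and Mmp28 were added), 6 to 10 for the difference (9 with all) and 2 to 6 between controls (4 with all, 2 without Has2_WT3 and 2 without PH20_WT1). Without the 4 B cell-rich libraries, an alternative chosen after seeing the data, 0 remained between controls. The replicate block gave 9, 6, 10 and 6. Same-number correlations ranged from -0.18 to 0.13 in the Has2 study, from -0.04 to 0.42 in the PH20 study and from -0.42 to 0.54 between the controls. PH20_TG1 (0.35) and PH20_TG2 (0.42) were most like the control of their own number, and the other transgenic libraries were not. These correlations cannot show whether replicate numbers pair the samples. The other settings gave 9 to 12 in the Has2 study and 3 to 6 in the PH20 study. Of the 10 members called in the Has2 study, Adamts16 lost its call with no minimum of reads (log2 fold change 1.26), voom weights (1.33), the replicate block (1.26), 1 fit of 16 libraries (1.26) and the B cell covariate (1.40), and Timp3 with the B cell covariate (0.65). The calls of Timp2, Mmp2, Mmp3, Mmp9, Mmp14, Mmp15, Mmp23 and Mmp27 in that study held in every setting tried, including each library left out. No score of the adipocyte progenitor or macrophage markers was among these settings, so dependence of the calls on those cells was not tested. In the PH20 study Mmp12 reversed to -2.31 with the skeletal muscle covariate, and the B cell covariate ended the calls of Mmp19 (0.48) and Adamts9 (0.32) and added Adamts5 (0.62) and Adamts10 (0.43). In the Has2 study it added Mmp19 (-0.61) and Mmp28 (-0.41). Mmp12 lost its call between controls with voom weights (5.15). The causes were not tested. Depth limits the members below 50 reads, and members at 0 reads were not detectable at this depth.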
